A study of Mus musculus with 2 samples.

Results

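Hoxc5, Hoxc8, Hoxc9 and Hoxd1 are 3 genes of the Hoxc cluster on mouse chromosome 15 and 1 gene of the Hoxd cluster on chromosome 2. They were chosen by the deposited array values themselves, as genes that lay far apart between the genotypes compared, so the differences given for them describe how they were chosen and test nothing. They are 4 of 13697 genes that the platform annotation names through a probe with 1 gene symbol, and each has 1 probe. The samples were embryoid bodies, the aggregates in which mouse embryonic stem (ES) cells differentiate, grown from ES cells labelled Elongin A-/- or Elongin A+/+. All bodies of both genotypes were kept in DMEM/F12 with serum and N2 supplement and exposed to 2 µM retinoic acid for 4 days. Elongin A is the large subunit of Elongin, which helps RNA polymerase II to transcribe without pausing. Total RNA of each genotype was labelled with digoxigenin and read on 1 Applied Biosystems chemiluminescent array. The labels do not say how many ES cell clones or cultures stand behind an array, nor how Elongin A was removed.

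Hox genes encode homeodomain transcription factors that give cells their position along the head-to-tail axis. They lie in 4 clusters in which gene order matches the order of expression along the body, with paralogue 1 at the anterior end and paralogue 13 at the posterior end. Retinoic acid is known to switch on the anterior genes first in ES cells, while the posterior genes depend more on FGF and WNT signals and on CDX factors. In the mouse spinal cord Hoxc5 and its paralogue Hoxa5 maintain phrenic motor neurons, Hoxc8 acts in brachial motor neurons, and Hoxc9 sets thoracic motor neuron identity. Hoxd1 belongs to the most anterior paralogue group and acts in pain-sensing neurons of the dorsal root ganglia.

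With 1 array per genotype there is no error between cultures, no test and no p-value, and the genotype cannot be told apart from the culture, the ES line or the array it came with. Intensities below are quantile normalised and have no physical unit, and 1 probe's intensity says nothing about another gene's. Differences are on the log2 scale and taken as Elongin A-/- minus Elongin A+/+, by the labels. The floor was the array median, 1.03, and where 1 of the arrays was under it the difference is a lower limit in size, given with "at least" or called a bound. Of the 13697 genes, 9568 exceeded the floor on either array and are called measured. Probes of the same gene disagreed in their difference with an SD of 0.43 (224 genes), which is the only error these arrays hold and covers no culture. The Eloa probe, for Elongin A itself, had 3.58 on the Elongin A-/- array and 3.88 on the Elongin A+/+ array, a difference of -0.12. The sources used here do not place that probe relative to the deletion, so it checks nothing and the directions rest on the labels.

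The promoter of Hoxd1, the anterior gene among the 4, is shown with that of Hoxd4, the next Hoxd gene by start site with a named probe, because the genes lie in the same cluster and had different sized differences. Each window runs from 250 bases before to 50 bases after the start site, is credited to RefSeq on build GRCm38.p6 and is read 5′ to 3′ on the + strand. Capitals mark matches on either strand of 6 short motifs. The first is GGGCGG, the GC box to which SP factors bind, and the next is CCAAT, the box of the NF-Y factor. The E-box of basic helix-loop-helix factors was searched as CACGTG. The TATA box of core promoters was searched as TATAAA. The half-site of retinoic acid receptors was searched as AGGTCA. The core to which CDX factors bind was searched as TTTATG. The Hoxd1 window is chr2:74762730-74763029 and the Hoxd4 window is chr2:74721728-74722027.
Hoxd1: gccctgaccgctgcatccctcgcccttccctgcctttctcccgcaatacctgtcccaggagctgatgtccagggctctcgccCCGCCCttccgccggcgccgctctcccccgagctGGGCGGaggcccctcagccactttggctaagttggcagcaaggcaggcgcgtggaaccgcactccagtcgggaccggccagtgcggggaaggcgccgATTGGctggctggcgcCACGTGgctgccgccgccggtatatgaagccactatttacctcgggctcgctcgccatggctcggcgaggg
Hoxd4: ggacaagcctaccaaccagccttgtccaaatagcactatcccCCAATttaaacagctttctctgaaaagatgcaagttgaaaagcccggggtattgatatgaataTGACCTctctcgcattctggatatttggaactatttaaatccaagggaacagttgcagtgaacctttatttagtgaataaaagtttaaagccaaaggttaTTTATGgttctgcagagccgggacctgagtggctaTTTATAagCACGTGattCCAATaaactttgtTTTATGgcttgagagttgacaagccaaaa

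In the Hoxd1 window 2 GC boxes start at positions -168 and -134 from the start site, a CCAAT box on the other strand starts at -37, and an E-box starts at -21. No TATA box, retinoic acid half-site or CDX core occurs there as these letters. The Hoxd4 window holds no GC box but has a retinoic acid half-site, read on the other strand, at -145. It also has a TATA box on the other strand at -10, an E-box at -2, 2 CCAAT boxes and 2 CDX cores. The Hoxd1 window is 69.7% G and C with 29 CpG pairs, and the Hoxd4 window 39.7% with 4, beside medians of 52.7% and 7 over all 32851 promoter windows. Of all windows, 35.7% hold the GC box, 37.4% the CCAAT box, 7.15% the E-box, 13.6% the TATA box, 16.3% the half-site and 11.9% the CDX core. A pattern TGATNNAT, the joint site of HOX and PBX proteins, was searched as well and occurs in 8.85% of windows but in neither of these. Hoxd9, which differed by -0.58, has a window that is also rich in G and C (68.3%), with 20 CpG pairs. Like that of Hoxd1, it holds 2 GC boxes and no TATA box, half-site or CDX core. The window of Hoxd3 (0.18), at 54% G and C with 20 CpG pairs, holds a half-site and a CDX core but no GC box. A match describes letters and shows no binding, and the bearing of these letters on the differences was not tested. Promoter windows of Hoxc5, Hoxc8 and Hoxc9 are not printed.

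Hoxc9 was lower on the Elongin A-/- array by the widest margin of all measured genes with the floor used here. Its probe (925617) had a normalised intensity of 1.99 on the Elongin A-/- array and 87.0 on the Elongin A+/+ array. The deposited values were 2.08 on the Elongin A-/- array and 85.2 on the Elongin A+/+ array. The difference was -5.45 (43.6-fold lower), and 40.9-fold with the deposited values. The Elongin A-/- value lies close above the floor, so the size of this fold rests on a dim spot. Hoxc9 overlaps the long noncoding RNA gene Gm36878 in RefSeq (GRCm38.p6), and the sources used here do not give the strand or exon that the probe reads.

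Hoxc8, the next gene of the cluster, was bright enough to measure on the Elongin A+/+ array only. Its probe (932159) had 0.578 on the Elongin A-/- array, under the floor, and 27.4 on the Elongin A+/+ array. It was therefore at least 26.7-fold lower, a difference of -4.74 at its bound. Without a floor the difference was -5.57, so the arrays do not settle whether Hoxc8 or Hoxc9 lay further apart. Of the 9568 measured genes, 8 had a larger absolute difference than the bound of Hoxc8.

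Hoxd1 was lower as well, by a smaller margin. Its probe (364937) had 2.38 on the Elongin A-/- array and 11.8 on the Elongin A+/+ array, and the deposited values were 2.49 on the Elongin A-/- array and 11.4 on the Elongin A+/+ array. The difference was -2.30 (4.94-fold lower), and 124 measured genes (1.30%) had a larger absolute difference.

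Hoxc5 ran the other way. Its probe (765291) had 17.0 on the Elongin A-/- array and 9.26 on the Elongin A+/+ array, with deposited values of 17.7 on the Elongin A-/- array and 8.86 on the Elongin A+/+ array. The difference was 0.88 (1.84-fold higher), short of the 2-fold size used for counting, and with the deposited values the fold was 1.997. A difference of this size or more is common on these arrays, since 1567 measured genes (16.4%) had a larger absolute one. The gene Mir615 lies within Hoxc5 in RefSeq. In the deposited values, from which the genes were chosen, Hoxc5 differed by 0.998. Of the measured Hoxc and Hoxd genes outside the choice, Hoxd4 (-0.81) and Hoxc6 (-0.79) lay furthest apart in those values. Hoxd10 and Hoxc10, under the floor on both arrays, are left out of this order, though their deposited values lay further apart than those of Hoxd4 and Hoxc6. After normalisation Hoxd4 (-0.97) and Hoxc6 (-0.92) lay slightly further apart than Hoxc5.

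**Figure D1:**
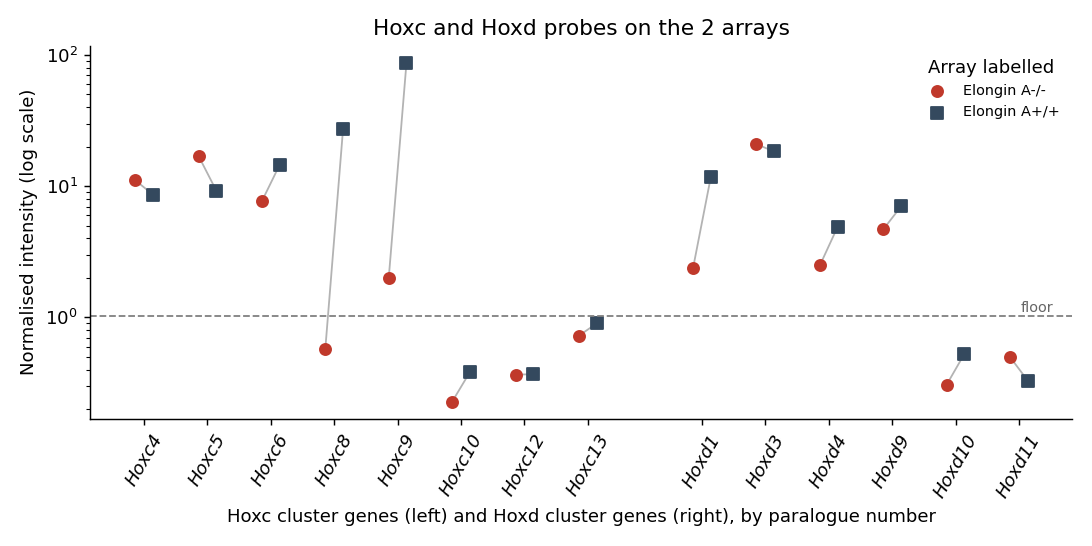
Normalised intensity (log axis) of each Hoxc and Hoxd gene with a named probe, with the Elongin A-/- array as circles left of the Elongin A+/+ array as squares and the floor of 1.03 dashed. Each line joins 1 gene's values and only these may be compared; Hoxc9 and Hoxc8 span the widest gaps, Hoxc5 has its circle above its square, and Hoxc10, Hoxc12, Hoxc13, Hoxd10 and Hoxd11 lie under the floor on both arrays.

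Against all measured genes, Hoxc9 and Hoxc8 stood well outside the main cloud of points, Hoxd1 lay at its margin and Hoxc5 just inside the line for 2-fold. Of 9568 measured genes, 573 were at least 2-fold lower and 648 at least 2-fold higher on the Elongin A-/- array, so 12.8% lay at least 2-fold apart. The median difference of all measured genes was -0.02, that of the 394 measured genes of chromosome 15 was -0.02, and that of the 784 of chromosome 2 was -0.05.

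**Figure D2:**
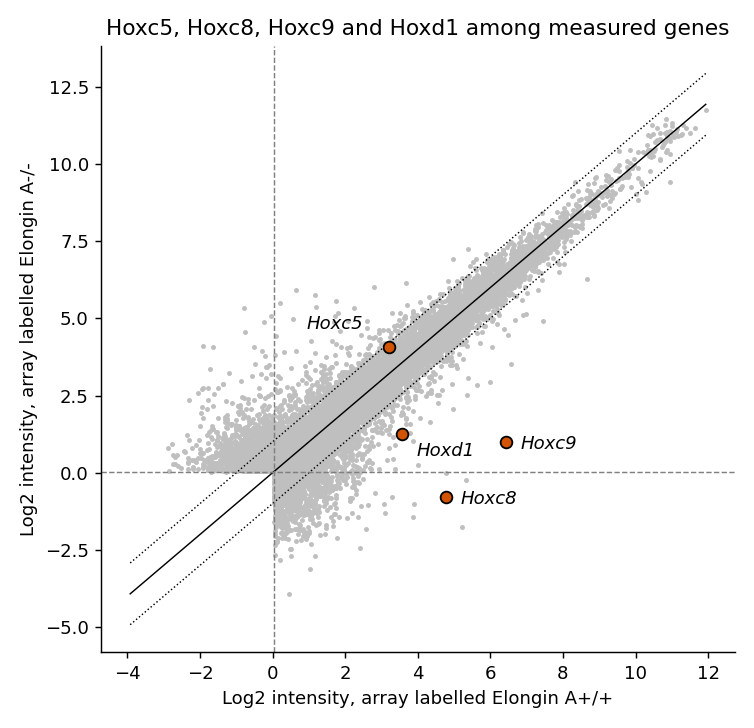
Log2 normalised intensity of the measured genes on the Elongin A-/- array (vertical axis) and the Elongin A+/+ array (horizontal axis), with the line of equality, 2-fold lines (dotted) and the floor (dashed). Hoxc9 and Hoxc8 (orange) lie far under the line, Hoxd1 under the lower 2-fold line, and Hoxc5, at 17.0 against 9.26, just under the upper one.

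Along the Hoxc cluster the difference was positive at Hoxc4 and Hoxc5, negative at Hoxc6, and wider at Hoxc8 and Hoxc9, whose order is not settled. Hoxc4, the anterior neighbour of Hoxc5, had 11.1 on the Elongin A-/- array and 8.64 on the Elongin A+/+ array, 0.36 apart, which is within the 0.43 by which probes of a gene disagree. Hoxc6, on the other side, had 7.69 on the Elongin A-/- array and 14.5 on the Elongin A+/+ array, a difference of -0.92. The widest step between neighbouring measured genes of the cluster was from Hoxc6 to Hoxc8 (-3.82 at the bound of Hoxc8), and the step from Hoxc5 to Hoxc6 was -1.80. Hoxc10, Hoxc12 and Hoxc13, the more posterior genes with a named probe, were below the floor on both arrays, so no difference can be given for them. Hoxc11 is not analysed here. Transcripts of Hoxc4, Hoxc5 and Hoxc6 are known to share upstream exons, and whether their probes separate them was not tested.

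Along the Hoxd cluster the anterior end carried the widest difference. Hoxd3, next in paralogue number to Hoxd1, had 20.8 on the Elongin A-/- array and 18.4 on the Elongin A+/+ array (0.18), a step of 2.48 from Hoxd1. Hoxd4 had 2.49 on the Elongin A-/- array and 4.90 on the Elongin A+/+ array (-0.97), and Hoxd9 had 4.69 on the Elongin A-/- array and 7.01 on the Elongin A+/+ array (-0.58). Hoxd10 and Hoxd11 were below the floor on both arrays, and Hoxd8, Hoxd12 and Hoxd13 are not analysed here. Together 3 of 9 measured Hoxc and Hoxd genes were at least 2-fold lower, beside 5.99% of all measured genes, and 0 of 9 were at least 2-fold higher, beside 6.77%. The 3 are the lower genes that were picked for their differences, and of the other 5 measured genes 0 lay 2-fold apart. Those 5 had a median of -0.58 and ran from -0.97 to 0.36.

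The paralogues in the other clusters gave differences of their own. In paralogue group 9 all 4 genes were lower on the Elongin A-/- array. Hoxb9 had 1.18 on the Elongin A-/- array and 16.2 on the Elongin A+/+ array (-3.78), Hoxa9 had 0.398 on the Elongin A-/- array and 3.27 on the Elongin A+/+ array (at least 3.18-fold lower), and Hoxd9 differed least (-0.58). In group 8 Hoxb8, dim on both arrays, had 0.749 on the Elongin A-/- array and 1.74 on the Elongin A+/+ array, a bound of -0.76 beside the bound of -4.74 for Hoxc8. In group 5 Hoxb5 had 51.8 on the Elongin A-/- array and 32.7 on the Elongin A+/+ array (0.66), in the same direction as Hoxc5, while Hoxa5 had 297 on the Elongin A-/- array and 370 on the Elongin A+/+ array (-0.31). These comparisons share both arrays, so likeness between paralogues has no independent replicate behind it.

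**Figure D3:**
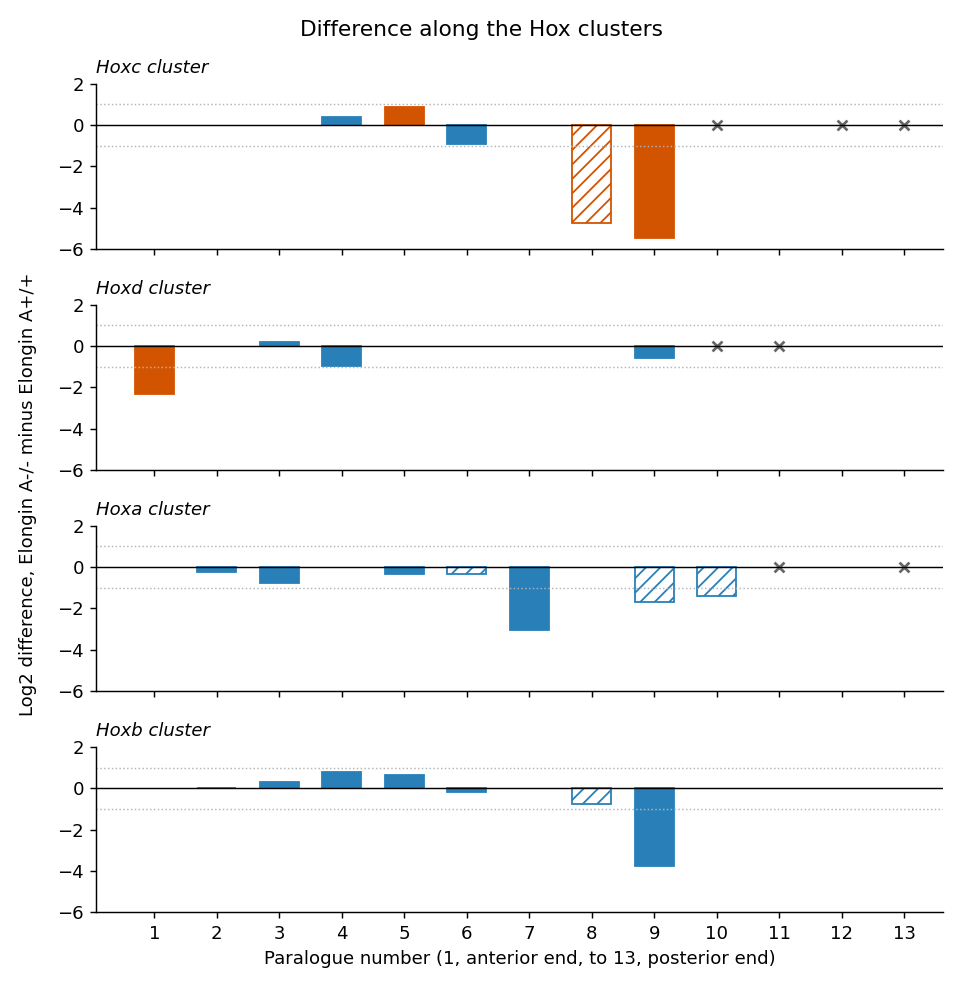
Log2 difference (Elongin A-/- minus Elongin A+/+) of Hox genes by paralogue number in the Hoxc, Hoxd, Hoxa and Hoxb clusters, with Hoxc5, Hoxc8, Hoxc9 and Hoxd1 in orange, bounds hatched, and crosses for genes below the floor on both arrays. Paralogue 9 bars point down in all 4 clusters, from -5.45 in Hoxc9 to -0.58 in Hoxd9, and the Hoxc bars turn from positive at Hoxc4 and Hoxc5 to negative from Hoxc6 on; dotted lines mark 2-fold.

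Most genes beside the clusters differed by less than 2-fold, as did most genes anywhere, since only 12.8% of all measured genes were at least 2-fold apart. Next to the posterior end of the Hoxc cluster in RefSeq order, Calcoco1, a coactivator, had 2.47 on the Elongin A-/- array and 1.82 on the Elongin A+/+ array (0.44), followed by Atp5g2, a subunit of ATP synthase (0.48), and Npff, a neuropeptide (-0.37). Beyond the anterior end lay Smug1, a DNA repair glycosylase, with 2.39 on the Elongin A-/- array and 4.14 on the Elongin A+/+ array (-0.80), then Cbx5, the heterochromatin protein HP1 alpha (0.06), and Copz1, a coat protein of transport vesicles (-0.23). Beside Hoxd1 lay Mtx2, a mitochondrial import protein, with 57.7 on the Elongin A-/- array and 58.0 on the Elongin A+/+ array (-0.01). Further out were Hnrnpa3, an RNA-binding protein (-0.68), and Agps, an enzyme of ether lipid synthesis, with 2.84 on the Elongin A-/- array and 1.20 on the Elongin A+/+ array (1.25), the only one of these 12 neighbours that was 2-fold apart. At the posterior end of the Hoxd cluster Lnpk, a protein that shapes the endoplasmic reticulum (-0.18), Atp5g3, another ATP synthase subunit (-0.01), and Atf2, a transcription factor (0.17), differed by less than the disagreement between probes. Over longer lists of flanking genes, 0 of 12 measured Hoxc neighbours lay 2-fold apart, with a median of -0.16, and of 10 measured Hoxd neighbours only Agps did, with a median of -0.10.

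HOX proteins bind DNA together with PBX and MEIS family partners, and these partner genes were close between the arrays. Meis1 had 129 on the Elongin A-/- array and 114 on the Elongin A+/+ array (0.18), and Pbx3 had 61.2 on the Elongin A-/- array and 49.996 on the Elongin A+/+ array (0.29). Of 6 measured cofactor genes 1 was at least 2-fold lower and 0 higher (16.7%, beside 12.8% of all measured genes), with a median of 0.11. The lower one was Hmgb1, an abundant chromatin protein that helps homeodomain factors bind, with 688 on the Elongin A-/- array and 1974 on the Elongin A+/+ array (-1.52). Meis3 and Pknox2 were below the floor on both arrays.

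A further list, posterior Hox inducers, holds signals and factors tied to posterior Hox induction, not all of them inducers themselves. Of its 8 measured genes, 3 were at least 2-fold lower on the Elongin A-/- array and 0 higher (37.5%, beside 12.8% of all measured genes). The median was -0.50, and 3 of the 8 values were bounds. Wnt3a, a ligand of the tail bud, had 2.61 on the Elongin A-/- array and 8.73 on the Elongin A+/+ array (-1.74), and Sp5, a WNT target, had 2.04 on the Elongin A-/- array and 14.7 on the Elongin A+/+ array (-2.85). Cdx2, a caudal factor that binds Hox loci, had 0.783 on the Elongin A-/- array, under the floor, and 2.92 on the Elongin A+/+ array (at least 2.84-fold lower). The other caudal genes, Cdx1 and Cdx4, were below the floor on both arrays, as was Fgf8. Rarg, a retinoic acid receptor, had 1.98 on the Elongin A-/- array and 0.481, under the floor, on the Elongin A+/+ array (a bound of 0.95). Several of these values lie near the floor, and the median ran from -0.79 to -0.14 over the other settings.

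Polycomb proteins keep Hox genes silent and trithorax proteins keep them active. Of 38 genes listed for these groups 27 were analysed here, without Kmt2a, Kmt2b, Kmt2c and Kmt2d of the trithorax group. Of 24 measured genes of these groups 3 were at least 2-fold lower on the Elongin A-/- array and 0 higher, with a median of -0.18. That is 12.5% of them at least 2-fold apart, close to the 12.8% of all measured genes. Ezh2, the methyltransferase that writes the repressive H3K27 mark, had 54.9 on the Elongin A-/- array and 96.2 on the Elongin A+/+ array (-0.81). The 3 genes counted were Phf1, Phc3 and Pcgf5. Phf1 had 1.10 on the Elongin A-/- array and 3.10 on the Elongin A+/+ array (-1.49), and Phc3, under the floor on the Elongin A-/- array, was at least 2.28-fold lower. Pcgf5 had 2.11 on the Elongin A-/- array and 4.28 on the Elongin A+/+ array (-1.02). Retinoid and hindbrain regulators, which bear on anterior genes such as Hoxd1, had 0 of 5 measured genes 2-fold lower and 1 higher (20%, beside 12.8% of all measured genes). The higher one was Sall4, a zinc finger factor, with 7.01 on the Elongin A-/- array and 2.93 on the Elongin A+/+ array (1.26). The median of these regulators was 0.05 and its sign turned with the arrays centred on the median above the floor (-0.05) and with the 25th percentile as the floor (-0.14). Egr2, a hindbrain segment gene, was below the floor on both arrays.

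Motor neuron genes of the spinal cord belong to the tissue in which Hoxc5, Hoxc8 and Hoxc9 are best known. Of 18 named on the array 14 were measured, 5 of them as bounds. Of these 14 genes 2 were at least 2-fold lower and 0 higher (14.3%, close to the 12.8% of all measured genes), with a median of -0.20. Isl1, a motor and sensory neuron factor, had 2.25 on the Elongin A-/- array and 10.04 on the Elongin A+/+ array (-2.16), and Neurog2, which starts neuron formation, had 2.43 on the Elongin A-/- array and 8.08 on the Elongin A+/+ array (-1.74). Foxp1, a motor column factor that works with HOX proteins, had 15.0 on the Elongin A-/- array and 19.1 on the Elongin A+/+ array (-0.35). Chat, the enzyme that makes acetylcholine, was below the floor on both arrays. Slc18a3 and Lhx1 of the same list were above it on both. Slc18a3 had 3.47 on the Elongin A-/- array and 5.97 on the Elongin A+/+ array (-0.78). Lhx1 had 2.79 on the Elongin A-/- array and 5.09 on the Elongin A+/+ array (-0.87). Mnx1, a motor neuron factor, had 1.44 on the Elongin A-/- array and 0.814 on the Elongin A+/+ array (a bound of 0.49). Olig2, a progenitor factor, had 1.53 on the Elongin A-/- array and 0.903 on the Elongin A+/+ array (a bound of 0.58). Ret also passed the floor on the Elongin A-/- array only, while Slit2 and Aldh1a2 passed it on the Elongin A+/+ array only. All 5 bounds rest on values close to the floor of 1.03.

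Markers of several cell types differed between the same arrays. Of all measured genes, 5.99% were at least 2-fold lower and 6.77% at least 2-fold higher, 12.8% in all. In these bulk samples fewer cells of a type and less RNA per cell cannot be told apart. The sums of intensity below add every named gene of a list, also those under the floor, and weigh bright probes most. The brightest neuron probe was Tubb3, with 168 on the Elongin A-/- array and 179 on the Elongin A+/+ array. For pluripotency it was Sox2, with 39.5 on the Elongin A-/- array and 72.2 on the Elongin A+/+ array. Of 11 measured neural progenitor markers 6 were at least 2-fold lower on the Elongin A-/- array and 0 higher (median -1.28), and their intensities summed to 111 on the Elongin A-/- array and 248 on the Elongin A+/+ array. Of 10 measured neuron markers 4 were at least 2-fold lower and 0 higher (median -0.81). Their sums were 261 on the Elongin A-/- array and 431 on the Elongin A+/+ array, and Map2 was below the floor on both. Not all markers of these 2 lists were lower. The progenitor markers Pax6 (0.46) and Pax7 (0.68) were higher by less than 2-fold. Among neuron markers Nhlh1 (0.74) was higher, as were Dcx (a bound of 0.46) and Snap25 (a bound of 0.14). Of 9 measured endothelial and blood markers, 6 of them measured as bounds, 8 were at least 2-fold higher and 0 lower (median 3.01). Their sums were 168 on the Elongin A-/- array and 11.6 on the Elongin A+/+ array, and Cdh5, Tie1 and Gata1 were below the floor on both. Klf1 was lower, with a bound of -0.57. Of 7 measured mesoderm markers 4 were at least 2-fold higher and 0 lower (median 1.11), with sums of 105 on the Elongin A-/- array and 45.4 on the Elongin A+/+ array, and Tbx6, Msgn1, Meox2 and Tbx5 were below the floor on both. Endoderm markers were mixed, with 2 of 8 higher and 1 lower (median 0.41) and sums of 32.8 on the Elongin A-/- array and 22.7 on the Elongin A+/+ array, and Gata4 and Apoa1 were below the floor on both. Pluripotency markers had 1 of 7 at least 2-fold lower and 0 higher (14.3%, close to the 12.8% of all measured genes), with a median of -0.72. Their sums were 64.7 on the Elongin A-/- array and 107 on the Elongin A+/+ array, and Tdgf1 was below the floor on both. Sox2 is in this list and in that of neural progenitors. The part of these cell types in the Hox differences was not tested.

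**Figure D4:**
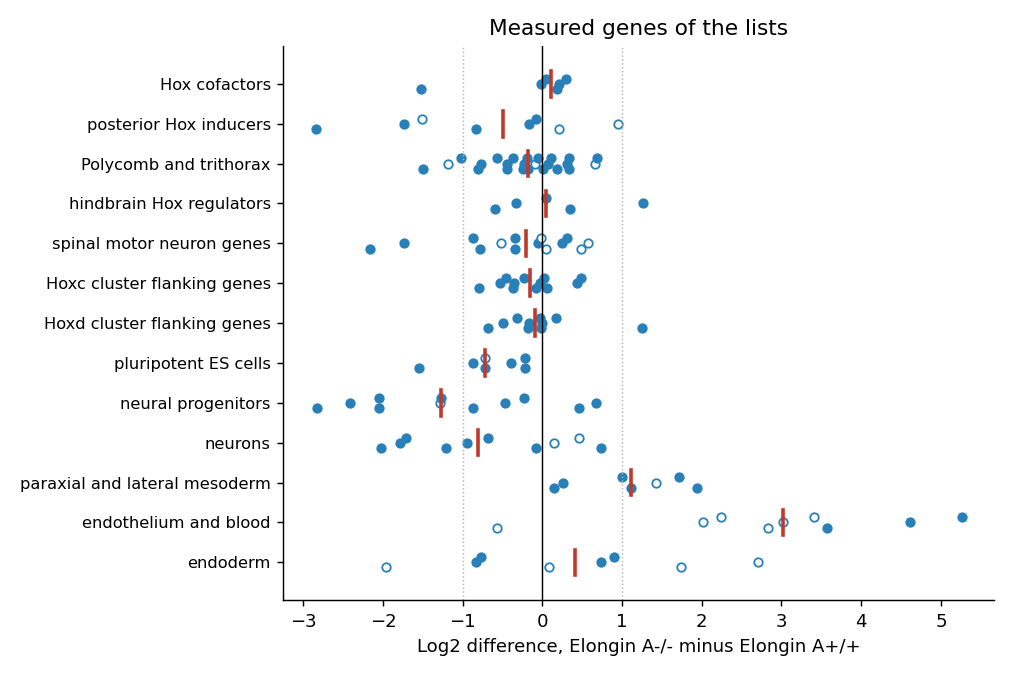
Log2 difference (Elongin A-/- minus Elongin A+/+) of each measured gene of the lists, with bounds as open circles and the list median as a red bar; dotted lines mark 2-fold. Hox cofactors and genes flanking the clusters lie inside the 2-fold lines, except Hmgb1 (-1.52) and Agps (1.25). Neural progenitor markers have a median of -1.28 and endothelial and blood markers one of 3.01.

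The genes whose pair of log2 intensities lay nearest to each Hox gene, by Euclidean distance over the 2 arrays among 9420 measured genes (predicted genes and clone names left out), differed between the 4. For Hoxc5 they were Rhoc, Gaa and Grn, all within 0.07 of it. For Hoxd1 they were Ptprg, a receptor phosphatase, at 0.04, Col14a1, a collagen, at 0.22, and Isl1 at 0.24. For Hoxc8 they were Myo3a, an unconventional myosin, Tubb4a, a tubulin, and Grap2, an adaptor protein, which like Hoxc8 were under the floor on the Elongin A-/- array, so their distances and order carry no meaning. For Hoxc9 they were Pik3ca, a kinase subunit, at 1.83, Olig3, a dorsal progenitor factor, at 1.87, and Tubb4a, whose Elongin A-/- value was under the floor. With 2 arrays such likeness is a description of position only.

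The 4 differences kept their sign under each of 10 other settings of scaling, floor, probes and chromosome. A floor or pseudocount cannot turn a sign, and the probe settings leave a gene with 1 probe unchanged. Only the scaling and chromosome settings could have turned one, so the kept sign says little. Hoxc5 stayed between 0.81 and 0.998, always short of 2-fold. Hoxd1 lay between -2.34 and -1.17, Hoxc8 between -5.57 and -2.39, and Hoxc9 between -5.51 and -4.06. The smallest sizes of the 3 lower genes came with the floor at the 75th percentile, where each is a bound.

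**Figure D5:**
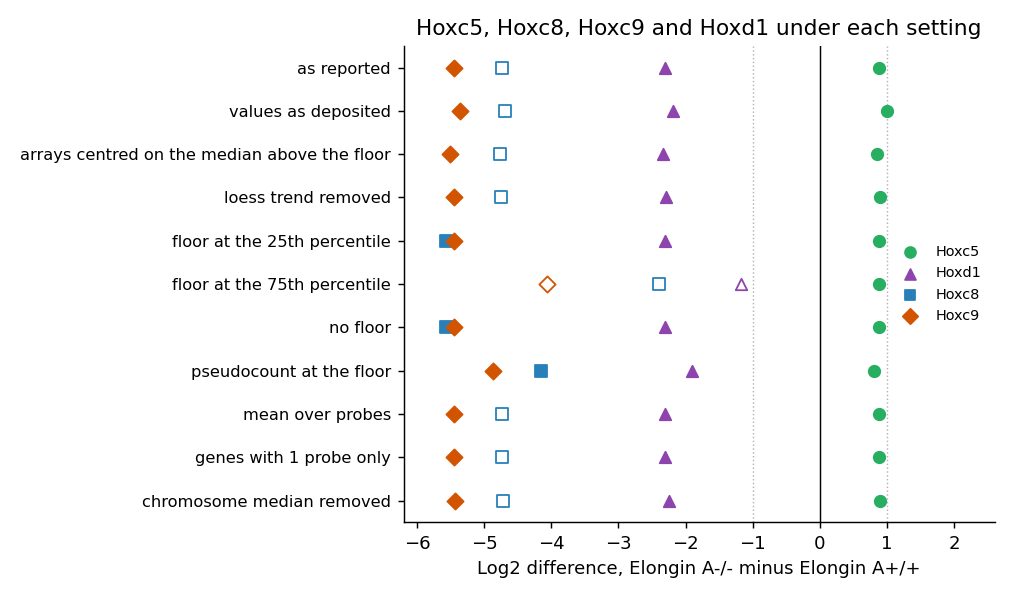
Log2 difference (Elongin A-/- minus Elongin A+/+) of Hoxc5, Hoxd1, Hoxc8 and Hoxc9 as reported and under each of 10 other settings, with bounds as open symbols and dotted lines at 2-fold. The order Hoxc5, Hoxd1, then Hoxc8 and Hoxc9 holds in each row, and Hoxc8 passes Hoxc9 with no floor and with a floor at the 25th percentile (-5.57 against -5.45).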

How the data were processed

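The authors deposited 1 table of intensities on a linear scale, with 32440 probes and 1 column for each of 2 arrays. The deposited intensity medians were 1.03 for Elongin A-/- and 1.02 for Elongin A+/+. The sources used here name no scanner software, background correction or normalization. Per the labels, 1 array was made for each genotype.

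Probes were named from the platform annotation (14253 with 1 symbol, 243 with several, 17944 with none), and gene order and chromosomes came from RefSeq GRCm38.p6. Several probes of a gene were represented by the one with the highest mean log2 value. The arrays were quantile normalised because percentiles differed by at least 0.1 on the log2 scale (the 10th by -0.16), which hides any shift shared by most genes. Values under the floor (the array median, 1.03) were set to it. Genes were counted at 2-fold. All computing used Python 3.11.15 with pandas 2.3.3 and was tested on simulated data.

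Members, gene lists and settings were chosen with earlier results of these data known. Genes named were the 4 members, all Hoxc and Hoxd genes, up to 4 genes per other list with the largest difference, the 3 measured genes on either side of each cluster, the 3 nearest patterns per member, and Eloa. Other genes named from the lists were chosen after their values were seen. Removing each chromosome's median was added after the data were seen.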

Additional observations from a re-analysis of the deposited data

How the results depend on the processing

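No paired analysis was possible because each genotype has 1 array. Hoxc5, Hoxc8, Hoxc9 and Hoxd1 kept their direction under all 10 other settings, and each has 1 probe, so the choice among probes could not change them. Nor could a floor or pseudocount turn a direction, which leaves only the scaling and chromosome settings able to do so. With the floor at the 75th percentile, the differences were -2.39 for Hoxc8, -4.06 for Hoxc9 and -1.17 for Hoxd1, since that floor lies above their Elongin A-/- values. With a pseudocount at the floor they were -4.15 for Hoxc8 and -4.86 for Hoxc9. Hoxc8 was at -5.57 with no floor or one at the 25th percentile. All measured genes at least 2-fold apart numbered 1221, and 2055 with a floor at the 25th percentile, 259 at the 75th, 2063 with no floor, 2927 at 1.5-fold and 391 at 3-fold. The share of these genes that were higher was 53.1%, and 64.0% with the values as deposited. Hoxc and Hoxd genes past the threshold numbered 3 of 9, and 6 of 9 at 1.5-fold, where 2927 of all 9568 measured genes passed. Genes of the other lists, without the cell type markers, past the threshold numbered 15 of 93, beside 1221 of 9568 measured genes. They numbered 30 of 93 at 1.5-fold and 7 of 93 at 3-fold (391 of 9568). With a floor at the 75th percentile they numbered 4 of 59, beside 259 of 5394 measured genes. Cell type marker genes past the threshold numbered 26 of 51, and 13 of 29 with a floor at the 75th percentile, where fewer were measured. The settings for these markers were a later addition, chosen after seeing the data. The median of the Hoxb genes, -0.00, turned sign with the values as deposited (0.11), the 75th percentile as floor (0.14) and the loess trend removed (0.03). Dim spots limit precision: a gene under the floor has no order, and without replicate arrays no size given here has an error between cultures.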
